A study of Mus musculus with 12 samples.

Results

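The genes described here are 36 mouse genes of glutathione conjugation and of the antioxidant programme controlled by the transcription factor NRF2. They were listed by symbol and matched to Ensembl gene identifiers through GENCODE mouse release M21, and all 36 were found among the 50686 genes of the deposited table. By role, 21 encode glutathione transferases, 7 make, recycle or use glutathione, 6 are antioxidant enzymes known as NRF2 targets, and the last pair are Nfe2l2, which encodes NRF2, and Keap1, which encodes its inhibitor.

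Messenger RNA was sequenced from ground livers of FVB/N mice, 6 to 8 weeks old when injected. Every mouse received a small interfering RNA (siRNA) in lipid nanoparticles (LNP) by tail vein; the dose was 0.5 mg/kg, given as 1 injection in 5 days. The siRNA was directed either against Eif3m, which encodes a subunit of translation initiation factor eIF3, or, in the controls, was a scrambled luciferase sequence, so control livers had also been exposed to nanoparticles and siRNA. The 4 groups, control and Eif3m siRNA at day 9 and at day 13, held 3 libraries each. The labels name no genetic modification and do not say whether the 3 libraries of a group came from separate animals, and if they did not, p-values reflect only technical spread. They name a different library preparation for each day, KAPA mRNA capture at day 9 and RNAseq-Neoprep at day 13, so day and preparation cannot be told apart.

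Glutathione transferases join the tripeptide glutathione to reactive, electrophilic compounds, which makes these easier to export and to excrete, and hepatocytes hold large amounts of both the enzymes and glutathione. In unstressed cells KEAP1 holds NRF2 in the cytoplasm and brings it to a CUL3 ubiquitin ligase for degradation. Electrophiles and oxidants modify KEAP1, after which NRF2 accumulates, pairs with small MAF proteins and binds antioxidant response elements in the promoters of genes for glutathione synthesis, thioredoxin recycling and quinone reduction.

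The promoters of 6 members are shown because they cover 2 genes with large falls at both days (Gstt3 and Gstt1), 2 further genes that fell (Gsta3 and Prdx1), and 2 genes that were called at neither day (Gclm and Nfe2l2). Each sequence holds the 250 bases before the start of the gene's RefSeq transcript, read 5′ to 3′ on the gene's strand, from RefSeq on build GRCm38.p6. Capitals mark the core of the antioxidant response element, TGACNNNGC, searched on both strands. The windows are chr1:21240335-21240584 (plus strand) for Gsta3, chr4:116685349-116685598 (plus strand) for Prdx1, chr3:122245307-122245556 (plus strand) for Gclm, chr2:75704664-75704913 (minus strand) for Nfe2l2, chr10:75797732-75797981 (minus strand) for Gstt1 and chr10:75781415-75781664 (minus strand) for Gstt3.
Gsta3: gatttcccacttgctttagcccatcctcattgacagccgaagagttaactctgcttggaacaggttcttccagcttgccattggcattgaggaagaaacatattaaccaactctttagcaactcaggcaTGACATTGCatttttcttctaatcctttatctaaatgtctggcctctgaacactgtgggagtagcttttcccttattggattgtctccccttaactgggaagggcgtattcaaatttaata
Prdx1: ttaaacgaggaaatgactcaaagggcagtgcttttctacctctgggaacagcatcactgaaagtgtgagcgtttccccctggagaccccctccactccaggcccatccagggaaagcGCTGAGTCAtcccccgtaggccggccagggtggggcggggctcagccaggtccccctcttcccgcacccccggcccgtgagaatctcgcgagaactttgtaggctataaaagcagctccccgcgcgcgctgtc
Gclm: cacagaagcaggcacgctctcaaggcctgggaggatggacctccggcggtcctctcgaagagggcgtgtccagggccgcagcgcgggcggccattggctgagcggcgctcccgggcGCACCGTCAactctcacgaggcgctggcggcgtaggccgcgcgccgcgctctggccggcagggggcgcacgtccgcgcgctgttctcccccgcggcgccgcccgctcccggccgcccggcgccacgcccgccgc
Nfe2l2: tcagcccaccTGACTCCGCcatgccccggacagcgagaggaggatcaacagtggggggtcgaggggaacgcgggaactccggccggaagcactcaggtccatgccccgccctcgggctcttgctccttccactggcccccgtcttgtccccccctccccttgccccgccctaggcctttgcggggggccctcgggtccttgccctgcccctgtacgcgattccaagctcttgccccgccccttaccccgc
Gstt1: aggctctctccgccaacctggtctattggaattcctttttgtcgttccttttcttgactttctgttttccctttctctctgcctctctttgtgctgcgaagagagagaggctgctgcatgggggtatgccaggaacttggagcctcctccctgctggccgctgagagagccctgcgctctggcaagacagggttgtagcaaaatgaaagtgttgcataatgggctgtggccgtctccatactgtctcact
Gstt3: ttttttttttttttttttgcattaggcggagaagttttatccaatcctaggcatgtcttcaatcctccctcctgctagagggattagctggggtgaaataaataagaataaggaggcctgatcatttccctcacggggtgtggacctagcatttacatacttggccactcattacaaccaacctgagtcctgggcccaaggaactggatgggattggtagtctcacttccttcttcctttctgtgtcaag
The core lies between 121 and 113 bases before the start of Gsta3 and between 240 and 232 bases before that of Nfe2l2. On the opposite strand it lies between 133 and 125 bases before the start of Prdx1 and between 134 and 126 bases before that of Gclm. The windows of Gstt1 and Gstt3 hold no match.

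Of the 36 members, 31 had a promoter in the RefSeq table, and Gstt2, Gsta4, Gclc, Gsr and Hmox1 were not matched. At least 1 window with the core was found for 9 of the 31 (29.0%), against 3112 of 27025 genes in the table (11.5%), and 10.2% of all 32851 windows held it. The 31 members had 47 windows, more per gene than in the whole table, which raises their share with at least 1 match. The 9 were Gclm, Ggt1, Gsta3, Gstm5, Gstm7, Mgst1, Nfe2l2, Prdx1 and Txnrd1. In the tests described below, 3 of these 9 members and 20 of the 22 without a match were called at one day or both, as were 26 of all 35 members tested and 28.5% of all 14868 genes tested at either day. Ggt1, one of the 9, was too low to test. A match in such a window is a description of its letters only.

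The labels were checked on Eif3m first. Its level was 46.0 ± 0.866 CPM (the count scaled by library size; SD, n = 3) in the day 9 controls and 4.9 ± 0.117 CPM in the day 9 Eif3m siRNA livers, for a log2 fold change of -3.23 with an SE of 0.08 (adjusted p = 1.96e-07). At day 13 it was 35.6 ± 4.6 against 2.32 ± 0.167 CPM (SD, n = 3 each; log2 fold change -3.94, SE 0.19, adjusted p = 3.83e-06). Library totals were 38783564 to 54538581 counts at day 9 and 7650269 to 9630027 at day 13, so low genes are measured less precisely at day 13. Unless DESeq2 or limma-voom is named, p-values come from edgeR's two-sided quasi-likelihood test with Benjamini-Hochberg adjustment over all genes tested. A gene is said to have risen or fallen where its adjusted p by edgeR was under 0.05. The median SD of log2 CPM over the members was 0.13 and 0.15 in the day 9 control and Eif3m siRNA groups and 0.20 in both day 13 groups. On the second principal component of the day 13 libraries, control replicate 3 (-33.1 against 17.4 and 17) and Eif3m siRNA replicate 2 (-23.9 against 17.5 and 5.1) stood apart, and these libraries held the lowest value of their group for 22 and 20 of the 34 members tested. At day 9 control replicate 1 (23.5 against -9.97 and -15.3) and Eif3m siRNA replicate 2 (11.7 against -4.61 and -5.32) lay apart on that day's second component, and the latter was lowest in its group for 20 of 35 members. The libraries expressed hepatocyte genes at high levels: the 13 hepatocyte markers, albumin among them, made up 14.6% to 23.3% of all counts.

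Levels were compared between genes only per transcript length, as CPM per kilobase of the principal transcript. In the day 9 controls the highest were the microsomal transferase Mgst1 (1750 ± 51.4), the glutathione peroxidase Gpx1 (1610 ± 14.2), Gsta3 (906 ± 96.1) and Gstm1 (781 ± 44.2; SD, n = 3). The ranges of Gsta3 (810 to 1000) and Gstm1 (745 to 830) overlapped. Gstz1 (479 ± 12.9) and the peroxiredoxin Prdx1 (440 ± 32.6) followed, and their ranges (467 to 493 and 411 to 475) overlapped. At the other end stood Gsta1 (1.66 ± 0.674), Gstp2 (1.53 ± 0.44) and Ggt1 (0.0263 ± 0.031), the gamma-glutamyl transferase that breaks down extracellular glutathione. In the day 13 controls Gpx1 (2030 ± 477), Gstm1 (1180 ± 211), Mgst1 (1120 ± 137) and Gsta3 (716 ± 19.8) were again the highest 4, and the ranges of Gstm1 (962 to 1380) and Mgst1 (1030 to 1280) overlapped.

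**Figure D1:**
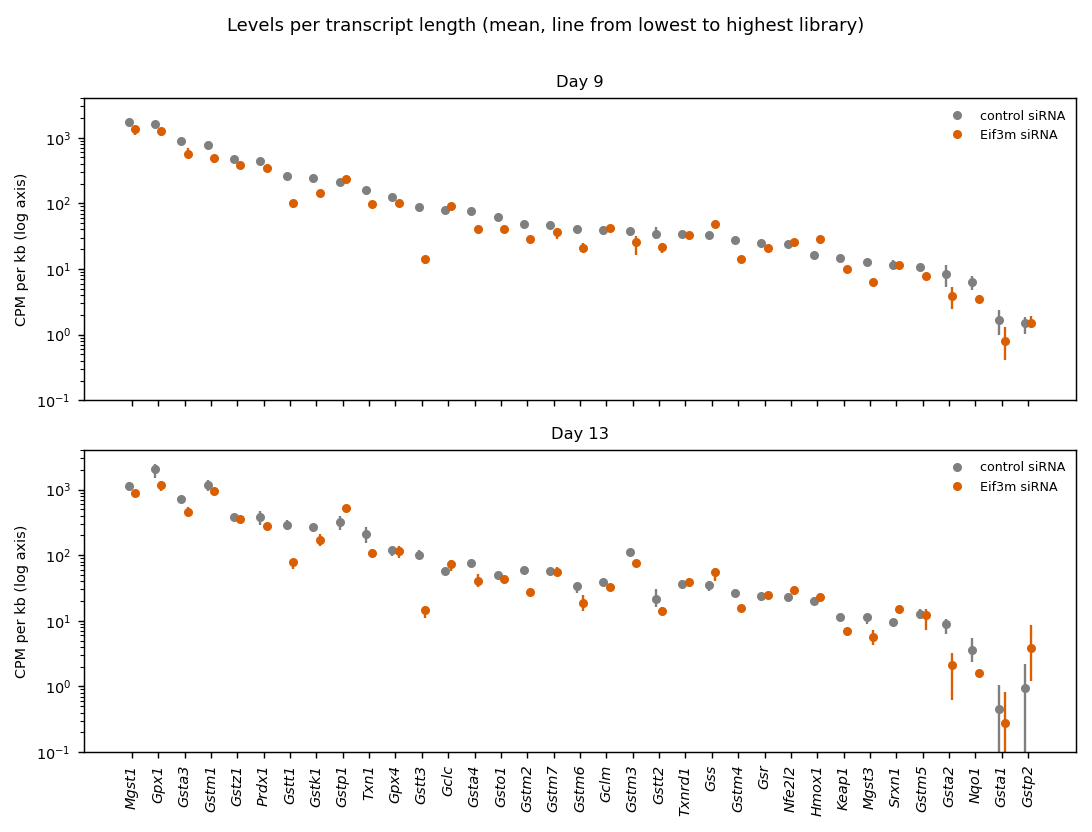
Level of each member except Ggt1 in CPM per kilobase of transcript (log axis), ordered by the day 9 control mean, with day 9 above and day 13 below; points are group means (control grey, Eif3m siRNA orange) and lines run from the lowest to the highest of 3 libraries. Mgst1, Gpx1, Gsta3 and Gstm1 lead in controls at both days, and lines that reach the lower edge belong to groups with a library below the axis.

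Most of the transferases fell in livers given Eif3m siRNA. At day 9, 21 of the 35 members tested were called (23.0% of all genes tested were), and at day 13, 17 of 34 were (16.8% of all genes). At day 9, 19 of the 35 members tested fell (54.3%, against 11.6% of the 14817 genes tested) and 2 rose, the glutathione synthetase Gss and the haem oxygenase Hmox1 (5.71%, against 11.4% of all genes). At day 13, 15 of 34 fell (44.1%, against 7.97% of the 11964 genes tested) and 2 rose, the pi class transferase Gstp1 and the sulfiredoxin Srxn1 (5.88%, against 8.86%). The same 12 genes fell at both days: Gsta3, Gsta4, Gstm2, Gstm4, Gstm6, Gstt1, Gstt3, Gstk1, Mgst3, Nqo1, Txn1 and Keap1. A further 7 fell at day 9 alone by the threshold and 3 at day 13 alone, 10 were called at neither day, and no member was called in opposite directions. The median log2 fold change over the members tested was -0.54 at day 9 and -0.39 at day 13, against 0.01 and 0.0004 over all genes tested.

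Ggt1, with 21 counts over the 12 libraries, was too low to test at either day, and Gsta1 was too low at day 13. The 3 control values lay entirely above the 3 Eif3m siRNA values for 24 of 35 members at day 9 (20.8% of all genes) and for 17 of 34 at day 13 (17.5%), and entirely below them for 3 members at each day (21.7% and 18.5% of all genes). The member counts at day 13 moved when single libraries were left out. Without control replicate 1, 6 fell and 0 rose, and without control replicate 2, 10 fell. Without Eif3m siRNA replicate 3, 5 fell and 0 rose, while 1 rose without Eif3m siRNA replicate 1. Over all genes, leaving out 1 library at a time gave 395 to 979 that fell and 471 to 1031 that rose, against 954 and 1060. With control replicate 3 and Eif3m siRNA replicate 2 both left out, a comparison added after the data were seen, 16 fell and 3 rose.

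**Figure D2:**
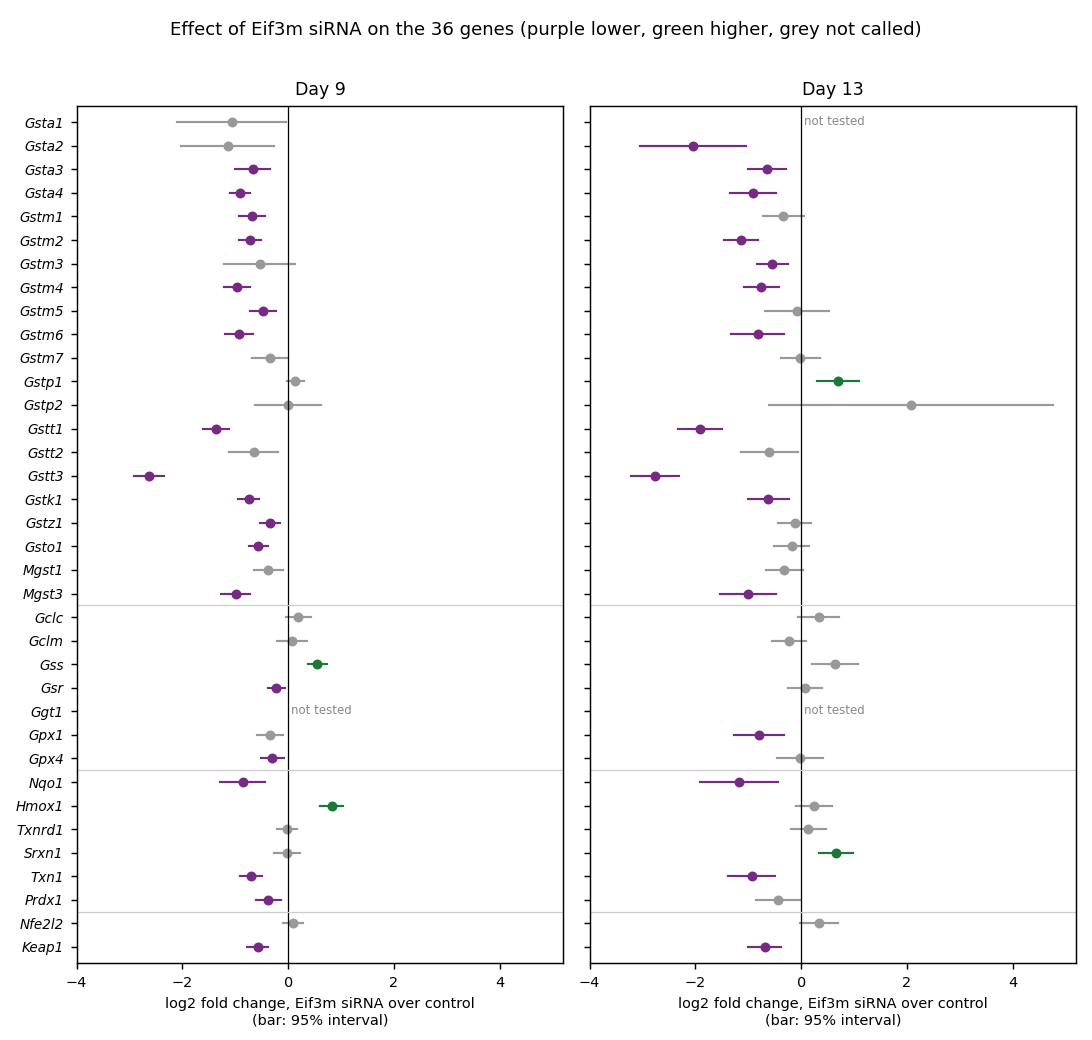
Log2 fold change (Eif3m siRNA against control) of each member at day 9 and at day 13, with bars for 95% confidence intervals, purple for genes that fell, green for genes that rose (adjusted p under 0.05) and grey for genes not called. Gstt3 lies farthest to the left at both days, followed by Gstt1 at day 9 and by Gsta2 and Gstt1 at day 13, and Gss, Hmox1, Gstp1 and Srxn1 are the green points.

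Among the 21 transferases, 13 fell at day 9 and 11 of 20 tested fell at day 13, when 1 (Gstp1) rose. The share of all genes tested that fell was 11.6% at day 9 and 7.97% at day 13, and 8.86% rose at day 13. Their median log2 fold change was -0.68 at day 9 and -0.61 at day 13. Summed over the 21 genes, transferase transcripts made up 6310 to 6630 CPM in the day 9 controls and 4020 to 4880 CPM after Eif3m siRNA. At day 13 the sums were 5410 to 6460 CPM and 4360 to 5040 CPM. The groups did not overlap at either day. In bulk tissue, fewer cells of a type and less RNA per cell cannot be told apart.

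The theta class, whose enzymes act on small halogenated hydrocarbons among other substrates, held Gstt3, the member with the largest fall at each day. The 3 theta genes among the members lie close together on chromosome 10 on the minus strand of build mm10, with Gstt4, which was too low to test, between Gstt1 and Gstt2. Gstt3 (ENSMUSG00000001665, chr10:75774115-75781414) stood at 156, 157 and 185 CPM in the day 9 controls and at 22.8, 27.5 and 30.1 CPM in the Eif3m siRNA livers. Its day 13 values were 225, 171 and 170 CPM in controls and 30.5, 32 and 20.8 CPM after Eif3m siRNA. Every Eif3m siRNA library lay far below every control library at both days, and the log2 fold changes were -2.63 (SE 0.12, adjusted p = 1.32e-05) and -2.76 (SE 0.20, adjusted p = 4.53e-05). The gene Gm20441 overlaps Gstt3 on the same strand and holds 12.2% of its 50-base stretches, so some reads could have been assigned to either.

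Gstt1 (ENSMUSG00000001663, chr10:75783813-75798584), which shares no 50-base stretch with another gene, was at 273, 261 and 268 CPM in the day 9 controls and at 108, 88.6 and 115 CPM after Eif3m siRNA. The day 13 values were 354, 308 and 251 CPM in controls and at 90.7, 63.3 and 88.1 CPM after Eif3m siRNA. The groups were again well apart, with log2 fold changes of -1.36 (SE 0.10, adjusted p = 0.000247) and -1.92 (SE 0.19, adjusted p = 0.000191). Of the members' theta genes, Gstt2 (chr10:75831114-75837424) did not pass edgeR's test. Its log2 fold changes were -0.65 (SE 0.20, adjusted p = 0.0548) and -0.60 (SE 0.24, adjusted p = 0.121), and control replicate 1 was its highest library at both days (100 and 69.6 CPM). It was called lower at day 9 by DESeq2 (adjusted p = 0.00186), limma-voom (0.0363), with the replicate number as a block (0.0257) and with a minimum mean of 5 CPM (0.0486), and at day 13 without control replicate 3 (0.0476).

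**Figure D3:**
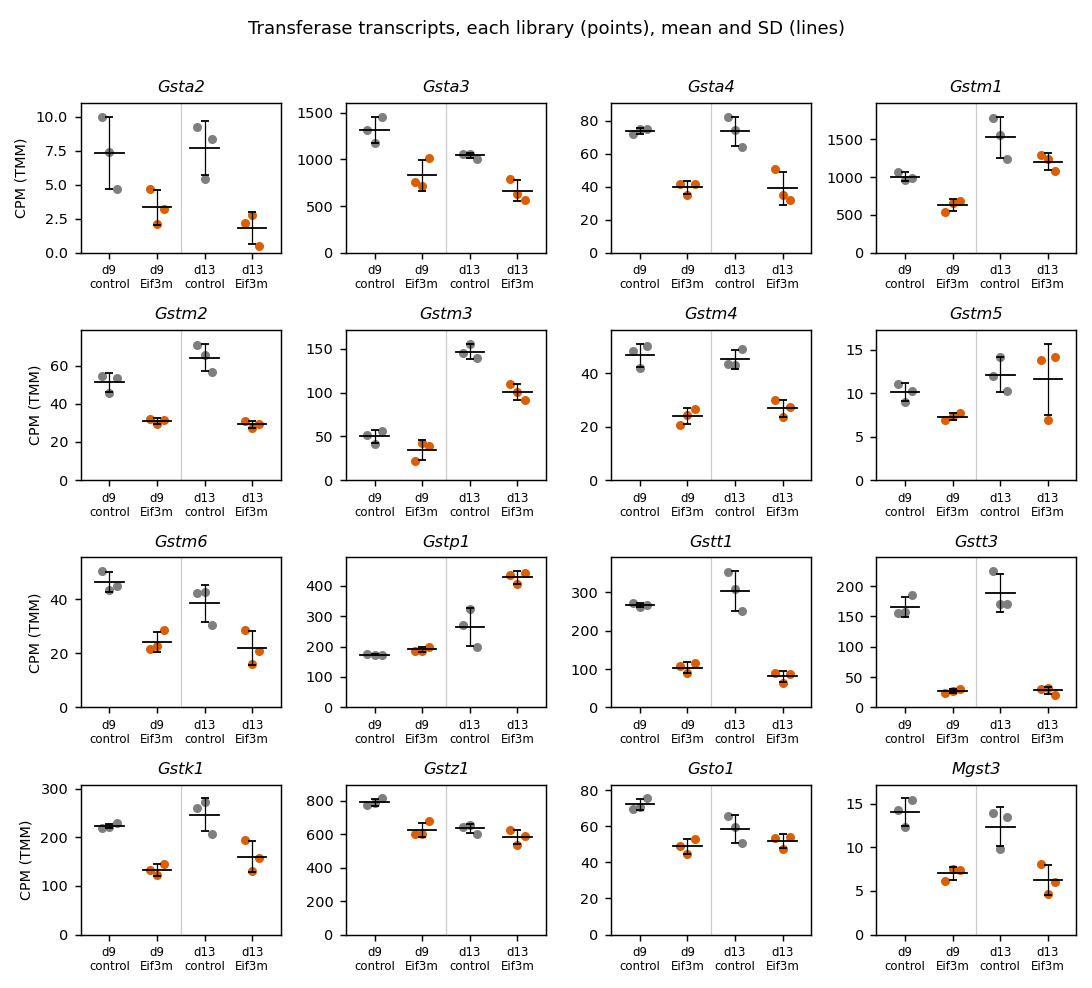
CPM in each library for the transferase genes called at one day or both, 1 panel per gene, with the 4 groups along the horizontal axis, a point per library and lines for mean ± SD (n = 3). Gsta1, Gstm7, Gstp2, Gstt2 and Mgst1, called at neither day, are not shown. Gstt3 and Gstt1 are far lower in all Eif3m siRNA libraries of both days, and Gstp1 is higher at day 13.

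The alpha class includes the main hepatic transferases for epoxides and for products of lipid peroxidation. Gsta3 (ENSMUSG00000025934, chr1:21240589-21265661, plus strand), known in mice for detoxifying aflatoxin epoxide, was at 1320, 1180 and 1460 CPM in the day 9 controls and at 755, 719 and 1020 CPM after Eif3m siRNA. In the day 13 livers it was at 1060, 1060 and 1010 CPM against 789, 635 and 570 CPM. The groups did not overlap, and the log2 fold changes were -0.67 (SE 0.14, adjusted p = 0.0126) and -0.65 (SE 0.16, adjusted p = 0.0211). The day 13 call was lost without control replicate 1, control replicate 2 or Eif3m siRNA replicate 3 (adjusted p = 0.0788, 0.0666 and 0.109).

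Gsta4 (ENSMUSG00000032348, chr9:78182774-78209349, plus strand), which conjugates the lipid peroxidation product hydroxynonenal, was at 71.9, 75.3 and 74.9 CPM in the day 9 controls and at 41.8, 35.2 and 41.8 CPM after Eif3m siRNA. Its day 13 values were 82.1, 74.6 and 64.2 CPM against 50.6, 34.9 and 32.1 CPM. All controls were above all Eif3m siRNA libraries, with log2 fold changes of -0.90 (SE 0.09, adjusted p = 0.000543) and -0.91 (SE 0.19, adjusted p = 0.0102). Leaving out control replicate 1 or Eif3m siRNA replicate 3 of day 13 ended the later call (adjusted p = 0.0545 and 0.0644).

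Gsta2, an alpha class gene inducible by NRF2 activators, was low in these livers. It was at 10, 7.37 and 4.7 CPM in the day 9 controls and 4.65, 2.12 and 3.23 CPM after Eif3m siRNA, and at day 13 at 9.26, 5.44 and 8.35 CPM against 2.19, 2.81 and 0.533 CPM. The groups did not overlap at either day, though at day 9 they nearly met. It passed the test at day 13 (log2 fold change -2.05, SE 0.45, adjusted p = 0.0138, but 0.0618 without control replicate 1) and not at day 9 (-1.14, SE 0.36, adjusted p = 0.0685). At day 9 it was called lower by DESeq2 (adjusted p = 0.00161), limma-voom (0.0402), with the replicate number as a block (0.0265) and without control replicate 3 (0.0372) or Eif3m siRNA replicate 1 (0.0472). Gsta2 shares 49.8% of its 50-base stretches with other genes and Gsta1 90.5%, so reads could be split between them. Summed, the pair had log2 fold changes of -1.13 (SE 0.39, adjusted p = 0.0872) at day 9 and -1.93 (SE 0.49, adjusted p = 0.0307) at day 13. Gsta1 alone lay between 0 and 2.05 CPM in all 12 libraries and was not called at day 9 (adjusted p = 0.126, or 0.0416 without Eif3m siRNA replicate 1).

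The mu class genes form one cluster on chromosome 3, in the order Gstm5, Gstm7, Gstm6, Gstm3, Gstm2, Gstm1 and Gstm4 between positions 107895821 and 108044894. Of its 7 genes, 5 fell at day 9 and 4 at day 13 (11.6% and 7.97% of all genes tested fell). Summed over the class, the level was 1200 to 1350 CPM in controls and 677 to 876 CPM after Eif3m siRNA at day 9, and 1600 to 2170 CPM against 1340 to 1590 CPM at day 13. Within the cluster, Gstm2, Gstm4 and Gstm6 fell at both days, Gstm1 and Gstm5 at day 9, Gstm3 at day 13, and Gstm7 was called at neither.

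Gstm2 (ENSMUSG00000040562, chr3:107981702-107986453, minus strand) was at 54.6, 45.6 and 53.7 CPM in the day 9 controls and at 32.3, 29.2 and 31.5 CPM after Eif3m siRNA. Its day 13 levels were 70.8, 65.6 and 56.5 CPM against 30.8, 27.2 and 29.6 CPM. These groups were clearly separated, with log2 fold changes of -0.73 (SE 0.09, adjusted p = 0.0014) and -1.14 (SE 0.15, adjusted p = 0.000831). Gstm4 (ENSMUSG00000027890, chr3:108040408-108044894, minus strand) was at 48.2, 41.8 and 50.1 CPM against 20.8, 24.5 and 26.6 CPM at day 9, and at 43.4, 43 and 49.2 CPM against 30, 23.5 and 27.2 CPM at day 13. No control library of Gstm4 came near an Eif3m siRNA library, and its log2 fold changes were -0.96 (SE 0.11, adjusted p = 0.00102) and -0.75 (SE 0.15, adjusted p = 0.00807).

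Gstm6 was at 50.5, 43.5 and 45 CPM in the day 9 controls against 21.6, 22.7 and 28.6 CPM, and at day 13 at 42.4, 42.7 and 30.5 CPM against 28.6, 16.1 and 20.8 CPM. Its groups were separated at both days, narrowly at day 13, with log2 fold changes of -0.93 (SE 0.12, adjusted p = 0.00141) and -0.82 (SE 0.22, adjusted p = 0.0314). The day 13 call was lost without control replicate 1 or 2 or Eif3m siRNA replicate 2 or 3 (adjusted p = 0.121, 0.104, 0.0653 and 0.123). Gstm3 was at 52.1, 41.4 and 56.1 CPM against 21.3, 42 and 39.4 CPM at day 9, where the groups overlapped (log2 fold change -0.54, SE 0.27, adjusted p = 0.21, or 0.0462 by DESeq2). Day 13 values stood at 145, 156 and 140 CPM against 110, 101 and 91.3 CPM, without overlap (-0.55, SE 0.13, adjusted p = 0.0203). That call did not hold without control replicate 1, control replicate 2 or Eif3m siRNA replicate 3 (adjusted p = 0.0645, 0.0762 and 0.117), with the replicate number as a block (0.0523) or with all 12 libraries in 1 model (0.0748), and 28.8% of its stretches occur in other genes.

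Gstm1, the most abundant mu class transcript here, was at 1070, 960 and 989 CPM in the day 9 controls and at 534, 659 and 687 CPM after Eif3m siRNA, with no overlap (log2 fold change -0.68, SE 0.11, adjusted p = 0.00383). At day 13 its values were 1780, 1560 and 1240 CPM against 1290, 1240 and 1080 CPM, where the lowest control lay among the Eif3m siRNA libraries (-0.34, SE 0.17, adjusted p = 0.212, or 0.0334 without control replicate 3 and Eif3m siRNA replicate 2). Other genes hold 18.9% of its stretches. Gstm5, a low transcript in liver, was at 11.1, 8.99 and 10.3 CPM against 6.92, 7.32 and 7.66 CPM at day 9 (log2 fold change -0.47, SE 0.11, adjusted p = 0.0158) and at 12, 14.2 and 10.2 CPM against 13.8, 6.88 and 14.1 CPM at day 13 (-0.08, SE 0.27, adjusted p = 0.876). Its groups were apart at day 9 and overlapped at day 13, and the day 9 call was lost without control replicate 3 or Eif3m siRNA replicate 1 (adjusted p = 0.0505 and 0.0587), with all 12 libraries in 1 model (0.151) and with day 9 counts thinned to day 13 depth (0.0624). Gstm7 ranged from 39.6 to 91.1 CPM and had adjusted p-values of 0.128 and 0.952.

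Of the pi class genes, Gstp1 rose at day 13. Gstp1 (ENSMUSG00000060803, chr19:4035407-4037985, minus strand), an enzyme of broad tissue range, was at 175, 172 and 172 CPM in the day 9 controls and 185, 187 and 200 CPM after Eif3m siRNA, and at day 13 at 271, 323 and 199 CPM against 437, 405 and 444 CPM. The Eif3m siRNA libraries were the higher ones at both days without overlap. The difference was small at day 9 (log2 fold change 0.14, SE 0.07, adjusted p = 0.214) and passed the test at day 13 (0.70, SE 0.18, adjusted p = 0.0262), but not without control replicate 1, Eif3m siRNA replicate 1 or Eif3m siRNA replicate 3 (adjusted p = 0.086, 0.0623 and 0.0972). Gstp1 shares 33.7% of its stretches with Gstp2, and for the sum of the pair the day 13 log2 fold change was 0.70 (SE 0.18, adjusted p = 0.0246). Gstp2 itself stayed between 0 and 6.88 CPM and was not called.

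Among the remaining transferases, Gstk1 (ENSMUSG00000029864, chr6:42245935-42250447, plus strand), a mitochondrial and peroxisomal enzyme, was at 220, 222 and 229 CPM in the day 9 controls and 132, 122 and 146 CPM after Eif3m siRNA. On day 13 the values were 260, 272 and 208 CPM against 195, 130 and 157 CPM. The groups did not overlap, and the log2 fold changes were -0.75 (SE 0.09, adjusted p = 0.00112) and -0.62 (SE 0.18, adjusted p = 0.0378). The day 13 call was lost with the replicate number as a block (0.0558) and without control replicate 1 or 2 or Eif3m siRNA replicate 2 or 3 (adjusted p = 0.131, 0.125, 0.0838 and 0.137).

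Mgst3, a microsomal enzyme with peroxidase and leukotriene C4 synthase activity, was at 14.3, 12.3 and 15.5 CPM in the day 9 controls and 6.2, 7.58 and 7.36 CPM after Eif3m siRNA, and at day 13 at 13.9, 9.77 and 13.5 CPM against 8.07, 4.62 and 6.08 CPM. All controls exceeded all Eif3m siRNA libraries (log2 fold changes -0.99, SE 0.12, adjusted p = 0.00139, and -1.01, SE 0.24, adjusted p = 0.019). Without control replicate 1 or Eif3m siRNA replicate 3 the day 13 adjusted p was 0.0823 and 0.0815.

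Gsto1, which reduces dehydroascorbate and methylated arsenic, was at 69.8, 70.8 and 75.5 CPM against 48.9, 44.5 and 53 CPM at day 9 (log2 fold change -0.56, SE 0.08, adjusted p = 0.00276) and at 65.6, 59.3 and 50.6 CPM against 53.5, 47.2 and 54.2 CPM at day 13 (-0.18, SE 0.15, adjusted p = 0.447). Its groups were apart at day 9 and overlapped at day 13. Gstz1, the maleylacetoacetate isomerase of tyrosine breakdown, was at 774, 788 and 816 CPM against 600, 600 and 677 CPM at day 9 (-0.34, SE 0.09, adjusted p = 0.0214) and at 646, 658 and 603 CPM against 623, 537 and 587 CPM at day 13 (-0.13, SE 0.14, adjusted p = 0.573). Gstz1 groups were likewise apart at day 9 alone, and that call was lost without control replicate 2, control replicate 3 or Eif3m siRNA replicate 1 (adjusted p = 0.0579, 0.0779 and 0.0793). Mgst1, the most abundant member per length at day 9, ranged from 1980 to 2100 CPM in controls and from 1300 to 1770 CPM after Eif3m siRNA, and just missed the threshold (-0.37, SE 0.12, adjusted p = 0.0503). It was called lower under 6 of 16 alternatives, among them DESeq2 (adjusted p = 0.0115) and leaving out Eif3m siRNA replicate 1 (0.0431). The day 13 log2 fold change of Mgst1 was -0.32 (SE 0.16, adjusted p = 0.198).

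Gss, a gene of glutathione synthesis, rose at day 9. Of the 7 genes of glutathione synthesis, recycling and use, 6 were tested at each day: 1 rose and 2 fell at day 9, and 1 fell at day 13. Among all genes tested 23.0% were called at day 9 and 16.8% at day 13, so the day 13 count was near that share. Gss (ENSMUSG00000027610, chr2:155563181-155592810, minus strand), whose enzyme completes the tripeptide, was at 68.8, 60.3 and 63.1 CPM in the day 9 controls and at 97.9, 89.1 and 94.2 CPM after Eif3m siRNA. The day 13 values were 79.3, 72.5 and 56.6 CPM against 120, 80.4 and 124 CPM. Every Eif3m siRNA library was above every control at both days, with log2 fold changes of 0.55 (SE 0.08, adjusted p = 0.00244) and 0.63 (SE 0.20, adjusted p = 0.0517), so it passed the threshold at day 9 and missed it at day 13. It was called at day 13 by DESeq2 (adjusted p = 0.0283), with no filter on low counts (0.0103), with all 12 libraries in 1 model (0.0105), without Eif3m siRNA replicate 2 (0.0111) and without both that library and control replicate 3 (0.00229). Exons of Acss2 and of 2 antisense transcripts overlap Gss on the opposite strand, and the sources used here do not say whether counting used strand.

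The subunits of glutamate-cysteine ligase, the rate-limiting step of glutathione synthesis, were not called. Gclc, the catalytic subunit, ranged from 233 to 303 CPM in controls and from 295 to 314 CPM after Eif3m siRNA at day 9, and from 169 to 221 against 194 to 285 CPM at day 13, with log2 fold changes of 0.19 (SE 0.10, adjusted p = 0.208) and 0.33 (SE 0.17, adjusted p = 0.233). Gclm, the modifier subunit, ranged from 184 to 256 against 211 to 248 CPM and from 189 to 237 against 162 to 197 CPM, with log2 fold changes of 0.08 (SE 0.12, adjusted p = 0.703) and -0.23 (SE 0.15, adjusted p = 0.309).

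Gsr, the reductase that regenerates glutathione, was at 63.8, 68.5 and 64.5 CPM in the day 9 controls and 56.3, 55.1 and 57.5 CPM after Eif3m siRNA (log2 fold change -0.22, SE 0.07, adjusted p = 0.0442), and at 53.9, 69.2 and 65.3 CPM against 70.8, 61 and 66.3 CPM at day 13 (0.07, SE 0.15, adjusted p = 0.782). The groups were apart at day 9 and overlapped at day 13. The day 9 call of Gsr was lost under 9 of 16 alternatives, among them leaving out control replicate 2 or 3 or Eif3m siRNA replicate 1, 2 or 3 (adjusted p = 0.128, 0.0965, 0.117, 0.109 and 0.0821).

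The glutathione peroxidases use glutathione to reduce peroxides. Gpx1, the cytosolic enzyme, was at 1720, 1740 and 1710 CPM in the day 9 controls and 1500, 1140 and 1440 CPM after Eif3m siRNA, and at 2340, 2580 and 1600 CPM against 1460, 1030 and 1250 CPM at day 13. Controls were above Eif3m siRNA libraries at both days, but the test was passed at day 13 (log2 fold change -0.80, SE 0.21, adjusted p = 0.0278) and not at day 9 (-0.34, SE 0.11, adjusted p = 0.0521). At day 9 it was called by DESeq2 (adjusted p = 0.0133), with no filter on low counts (0.0401), with upper-quartile scaling (0.0472) and with counts thinned to day 13 depth (0.0448). The day 13 call was lost without control replicate 1 or 2 or Eif3m siRNA replicate 2 or 3 (adjusted p = 0.111, 0.106, 0.0612 and 0.0993) and with the replicate number as a block (0.0515).

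Gpx4, which reduces lipid hydroperoxides in membranes, was at 117, 126 and 121 CPM in the day 9 controls and 102, 86.7 and 108 CPM after Eif3m siRNA (log2 fold change -0.30, SE 0.09, adjusted p = 0.0493), and at 128, 124 and 91.5 CPM against 132, 85.6 and 120 CPM at day 13 (-0.02, SE 0.19, adjusted p = 0.949). The groups were apart at day 9 and overlapped at day 13. The day 9 call was lost under 9 of 16 alternatives, among them leaving out control replicate 1, 2 or 3 or Eif3m siRNA replicate 1 or 2 (adjusted p = 0.0612, 0.127, 0.113, 0.103 and 0.116), and the pseudogene Gpx4-ps2 holds 34.7% of its stretches.

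**Figure D4:**
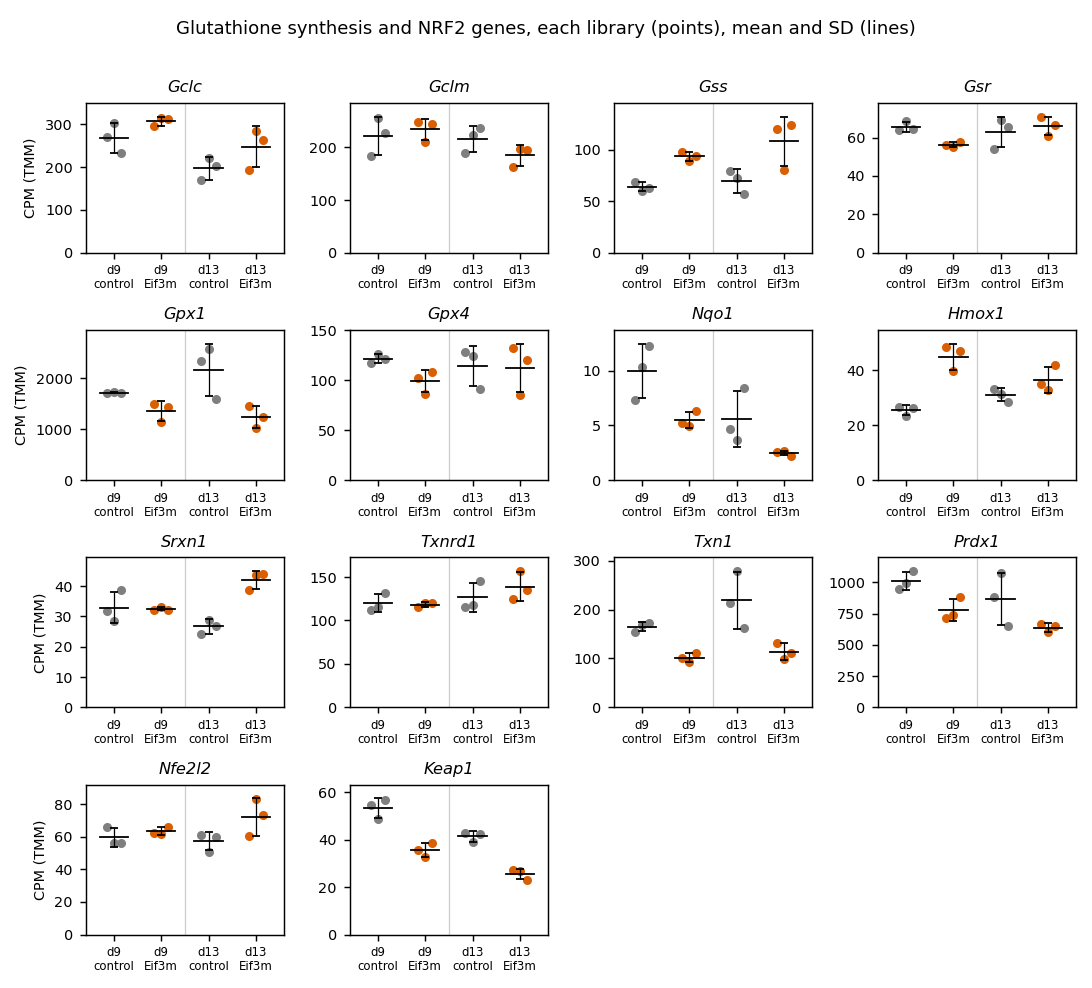
CPM in each library for genes of glutathione synthesis, NRF2 targets, Nfe2l2 and Keap1, 1 panel per gene, with a point per library and lines for mean ± SD (n = 3) in each of the 4 groups. Hmox1 is higher after Eif3m siRNA at day 9, Srxn1 at day 13, and Keap1 and Txn1 are lower at both days.

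The 6 NRF2 targets changed in both directions: 1 rose and 3 fell at day 9, and 1 rose and 2 fell at day 13. Called at these days were 23.0% and 16.8% of all genes tested. Nqo1 (ENSMUSG00000003849, chr8:107388225-107403206, minus strand), the quinone reductase often read as an NRF2 reporter, was low, at 7.35, 10.3 and 12.3 CPM in the day 9 controls and 5.26, 4.93 and 6.34 CPM after Eif3m siRNA. In the day 13 livers it was at 4.63, 3.63 and 8.45 CPM against 2.6, 2.62 and 2.24 CPM. The controls were higher at both days without overlap, with log2 fold changes of -0.86 (SE 0.19, adjusted p = 0.0144) and -1.18 (SE 0.34, adjusted p = 0.0383). The day 9 call was lost without Eif3m siRNA replicate 1 or 2 (adjusted p = 0.0549 and 0.0512). The day 13 call was lost without control replicate 1 or 3 or any 1 of the Eif3m siRNA replicates (adjusted p = 0.0704, 0.128, 0.0803, 0.0617 and 0.141), in limma-voom (0.0651), with the replicate number as a block (0.0661) and with control replicate 3 and Eif3m siRNA replicate 2 both left out (0.131).

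Hmox1 (ENSMUSG00000005413, chr8:75093621-75100589, plus strand), which opens the haem ring and is also expressed by macrophages, was at 26.6, 23.3 and 26.3 CPM in the day 9 controls and at 48.4, 39.6 and 46.9 CPM after Eif3m siRNA. Its day 13 levels were 33.2, 31.4 and 28.6 CPM against 34.9, 32.9 and 41.9 CPM. The groups were far apart at day 9 (log2 fold change 0.82, SE 0.10, adjusted p = 0.00121) and overlapped at day 13 (0.24, SE 0.15, adjusted p = 0.324). The summed level of monocyte and infiltrating macrophage markers was also higher after Eif3m siRNA at day 9 and was lower at day 13. The 10 genes summed to 51.7 to 66.8 CPM in the day 9 controls and 123 to 140 CPM after Eif3m siRNA, and to 115 to 157 CPM against 69.9 to 89.2 CPM at day 13, and none of the 10 was at 0 throughout a group. Most of each sum was Lyz2, with group means of 43 against 103 CPM at day 9 and 108 against 64.8 CPM at day 13. Kupffer cell markers, of resident macrophages, summed lower after Eif3m siRNA at both days. Their sums were 391 to 481 against 297 to 360 CPM at day 9 and 369 to 460 against 154 to 244 CPM at day 13. The part of either marker list in the Hmox1 result was not tested.

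Srxn1 (ENSMUSG00000032802, chr2:152105516-152111376, plus strand), which repairs overoxidised peroxiredoxins, was at 31.8, 28.4 and 38.6 CPM in the day 9 controls and 32.3, 33.1 and 32.3 CPM after Eif3m siRNA. Day 13 values stood at 24.2, 28.9 and 27 CPM against 38.8, 43.6 and 44 CPM. The groups overlapped at day 9 (log2 fold change -0.02, SE 0.11, adjusted p = 0.934) and were separated at day 13 (0.66, SE 0.14, adjusted p = 0.0122), although without control replicate 1 or Eif3m siRNA replicate 3 the later adjusted p was 0.0596 and 0.0685.

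Of the thioredoxin genes, Txn1 fell at both days. Txn1 (ENSMUSG00000028367, chr4:57943373-57956411, minus strand), the cytosolic thioredoxin, was at 154, 168 and 172 CPM in the day 9 controls and 100, 92.8 and 112 CPM after Eif3m siRNA, and at day 13 at 214, 279 and 163 CPM against 132, 97.9 and 112 CPM. Controls were higher throughout, with log2 fold changes of -0.70 (SE 0.09, adjusted p = 0.00177) and -0.94 (SE 0.20, adjusted p = 0.0108, or 0.0564 without Eif3m siRNA replicate 3). Txnrd1, the selenoenzyme that reduces thioredoxin, ranged from 112 to 132 CPM against 115 to 120 CPM at day 9 and from 116 to 146 CPM against 125 to 157 CPM at day 13, and was not called (log2 fold changes -0.02 and 0.14, SE 0.08 and 0.15, adjusted p = 0.904 and 0.584).

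Prdx1, a peroxiredoxin that thioredoxin keeps reduced, was at 942, 996 and 1090 CPM in the day 9 controls and 718, 741 and 879 CPM after Eif3m siRNA (log2 fold change -0.37, SE 0.10, adjusted p = 0.0334). On day 13 the values were 878, 1070 and 649 CPM against 663, 601 and 650 CPM (-0.44, SE 0.19, adjusted p = 0.138, or 0.024 without control replicate 3 and 0.0126 without that library and Eif3m siRNA replicate 2). The groups were apart at day 9 and overlapped at day 13 through control replicate 3. The day 9 call was lost without control replicate 2 or 3 or Eif3m siRNA replicate 1 or 2 (adjusted p = 0.0747, 0.116, 0.114 and 0.0775) and with all 12 libraries in 1 model (0.146).

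Nfe2l2, the gene for NRF2 itself, was not called, while Keap1 fell at both days. Nfe2l2 ranged from 56.2 to 66.3 CPM in controls and from 62 to 66.2 CPM after Eif3m siRNA at day 9, and from 50.8 to 61 CPM against 60.2 to 83.1 CPM at day 13 (log2 fold changes 0.09, SE 0.08, adjusted p = 0.461, and 0.34, SE 0.16, adjusted p = 0.181). Keap1 (ENSMUSG00000003308, chr9:21229730-21239361, minus strand) was at 54.5, 48.7 and 56.8 CPM in the day 9 controls and 35.8, 32.8 and 38.5 CPM after Eif3m siRNA, and at day 13 at 42.7, 38.9 and 42.5 CPM against 27.1, 26.7 and 23.2 CPM. Its groups were well separated, with log2 fold changes of -0.58 (SE 0.09, adjusted p = 0.00325) and -0.69 (SE 0.14, adjusted p = 0.00903, or 0.0684 without Eif3m siRNA replicate 3). Exons of the antisense transcript Gm16754 overlap Keap1. RNA levels do not measure NRF2 protein, on which KEAP1 acts.

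Whether the siRNA effect differed between the days was tested as a difference of differences over all 12 libraries. By edgeR's quasi-likelihood test 0 of 35 members passed, against 2.55% of the 14248 genes tested (0.898% higher and 1.66% lower at day 13), and 6 had an unadjusted p under 0.05, against 18.2% of all genes (Gstm2, Gstt1, Gsto1, Gstp1, Hmox1 and Srxn1). The nearest to the threshold were Srxn1, whose effect was 0.68 higher on the log2 scale at day 13 (SE 0.17, adjusted p = 0.0555), and Hmox1, with a difference of -0.58 (SE 0.18, adjusted p = 0.0914). Gstp1 had a difference of 0.56 (SE 0.20, adjusted p = 0.14). DESeq2 called Srxn1 (adjusted p = 0.00757) and Hmox1 (adjusted p = 0.0388), and limma-voom called 0 members. Without day 9 control replicate 2 the adjusted p of Srxn1 was 0.0485, and without day 13 control replicate 2 that of Gstp1 was 0.0486. Members that passed at 1 day and missed at the other are therefore not shown to differ between days.

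Of the 8 other glutathione transferase genes in the table, 4 were tested at day 9 and 2 at day 13. Over all genes tested, 11.6% and 7.97% fell at these days. Among the other transferases tested, only Gstp3 was called, lower at both days. This pi class neighbour, which shares no 50-base stretch with Gstp1 or Gstp2, was at 965, 918 and 887 CPM in the day 9 controls and 474, 348 and 466 CPM after Eif3m siRNA (log2 fold change -1.10, SE 0.12, adjusted p = 0.00103). The day 13 values were 782, 611 and 509 CPM against 437, 273 and 320 CPM (-0.89, SE 0.21, adjusted p = 0.0192). Gstp3 thus fell at both days while Gstp1 rose at day 13.

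Other genes of glutathione supply, breakdown and use moved both ways, with 4 higher and 5 lower of 26 tested at day 9 and 3 higher and 3 lower of 22 at day 13. Over all genes tested, 11.4% rose and 11.6% fell at day 9, and 8.86% rose and 7.97% fell at day 13. Slc25a39, a carrier that brings glutathione into mitochondria, rose at both days (log2 fold changes 0.59 and 1.37, adjusted p = 0.00268 and 0.000898), and the glutaredoxin Glrx fell at both (-0.96 and -1.07, adjusted p = 0.000992 and 0.00287). The glyoxalase Glo1 fell at day 9 (-0.51, adjusted p = 0.00366), where at day 13 its adjusted p was 0.196. Ggt5 (-2.46, adjusted p = 0.00163) and Gpx3 (-1.62, adjusted p = 0.0026) fell at day 13. At day 9 their log2 fold changes were -0.25 and 0.46 (adjusted p = 0.353 and 0.067). They were the 2 of 25 genes of this list called for the difference between days (-2.23 and -2.08), against 2.55% of all genes. Of other genes linked to NRF2, 2 rose and 13 fell of 27 tested at day 9, and 2 rose and 6 fell of 26 at day 13. Changed at both days were Cyp2a5 (-1.33 and -2.01, adjusted p = 0.000671 and 0.00431), Idh1 (-0.83 and -1.13, adjusted p = 0.00191 and 0.000925), Ces1g (-1.04 and -1.47, adjusted p = 0.00331 and 8.89e-05) and the autophagy receptor Sqstm1 (0.46 and 1.07, adjusted p = 0.0067 and 0.000925). Adh7 rose at day 9 (0.87, adjusted p = 0.00325) and had an adjusted p of 0.0574 at day 13 (0.82). Among 18 other thioredoxin and peroxide genes, 1 rose and 8 fell at day 9, and 1 rose and 4 fell at day 13. The gene that rose was Sesn2, a stress-induced sestrin, at both days (1.17 and 1.28, adjusted p = 0.0017 and 0.00339), and Msra, a methionine sulfoxide reductase, fell at both (-0.63 and -0.74, adjusted p = 0.00195 and 0.024). Catalase (Cat, -0.51 and -0.51, adjusted p = 0.00343 and 0.0416) and the peroxiredoxin Prdx6 (-0.50 and -0.55, adjusted p = 0.0114 and 0.0231) also fell at both days.

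Of 13 partners and regulators of NRF2, 1 rose and 2 fell at day 9, and 1 rose at day 13. The share called was near that of all genes tested at day 9 (23.0%) and below it at day 13 (16.8%). The coactivator Crebbp rose at both days (log2 fold changes 0.47 and 0.62, adjusted p = 0.05, under the threshold before rounding, and 0.048), and Dpp3, a KEAP1-binding peptidase, and the small MAF gene Mafg fell at day 9 (-0.33 and -0.43, adjusted p = 0.0173 and 0.0329). All 14 receptors and factors that control hepatic transferase genes were tested. Their median log2 fold changes were -0.045 at day 9 and -0.067 at day 13, against 0.01 and 0.0004 over all genes. At day 13, 2 of the 14 were called, against 16.8% of all genes tested. Among these factors, Cebpb rose (0.55, adjusted p = 0.0187) and Stat5b fell (-0.35, adjusted p = 0.0166) at day 9, when 23.0% of all genes were called. At day 13 Nr1i3, the gene for the xenobiotic receptor CAR, and Foxa2 fell (-1.13 and -0.95, adjusted p = 0.00428 and 0.0161), and at day 9 their log2 fold changes were -1.07 and -0.29 (adjusted p = 0.0702 and 0.408).

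Cell type markers moved with the siRNA in the same libraries, and their part in the members' results was not tested. For comparison with the counts below, 23.0% of all genes tested were called at day 9 and 16.8% at day 13. Hepatocyte markers summed to 155000 to 168000 CPM in controls and 137000 to 144000 CPM after Eif3m siRNA at day 9, and to 221000 to 253000 against 144000 to 219000 CPM at day 13. Albumin (Alb) was the largest part of these sums, with group means of 91900 against 69800 CPM at day 9 and 152000 against 96000 CPM at day 13. Of the 13 hepatocyte markers 1 rose and 4 fell at day 9, and 2 rose and 1 fell at day 13. Their median log2 fold change was 0.16 at day 9 and -0.03 at day 13, so the sums do not describe the typical marker. Kupffer cell markers summed to 391 to 481 against 297 to 360 CPM at day 9 and to 369 to 460 against 154 to 244 CPM at day 13. Of 12 tested at day 9, 1 rose and 7 fell (Clec4f by a log2 fold change of -2.00, adjusted p = 1.79e-05), and 9 of 11 fell at day 13. Of the monocyte and macrophage markers, 4 of 9 rose at day 9 (Lyz2, 1.26, adjusted p = 0.000253) and 1 of 5 fell at day 13 (Lyz2, -0.74, adjusted p = 0.0153). Stellate cell and fibroblast markers summed to 244 to 324 against 329 to 381 CPM at day 9, where 3 of 10 rose, and to 402 to 577 against 323 to 347 CPM at day 13, where 3 fell. Of 10 endothelial markers 1 rose at day 9 and 2 fell at day 13, 1 of 4 cholangiocyte markers tested at day 13 rose (Sox9, 2.00, adjusted p = 0.000441), and 1 of 7 erythroid markers fell at day 9 (Klf1, -0.75, adjusted p = 0.0101). Erythroid markers summed to 613 to 811 against 411 to 735 CPM at day 9 and to 2060 to 5840 against 689 to 1810 CPM at day 13, where edgeR and limma-voom called 0 of 6, DESeq2 called 3 and 4 had an unadjusted p under 0.05. All 3 tools called 0 of 6 cholangiocyte markers at day 9, and 0 had an unadjusted p under 0.05. Markers of neutrophils, of T and NK cells and of B and plasma cells each summed to at most 11.3 CPM in any library, and few passed the filter at day 13. Tested were 3 of 8 neutrophil, 10 of 10 T and NK cell and 8 of 8 B and plasma cell markers at day 9. At day 13 these numbers were 1, 3 and 0. Of those tested, edgeR, limma-voom and DESeq2 called none, except 1 B and plasma cell marker that DESeq2 called at day 9. With so few tested, day 13 does not show whether these markers changed. At an unadjusted p under 0.05 edgeR's count was 2 B and plasma cell markers at day 9 and 0 otherwise among those tested.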

How the data were processed

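Estimated counts per gene for 12 liver libraries (4 groups of 3) were deposited by the authors in 1 table. Reads were processed with STAR 2.5.3a and RSEM 1.3.0 against mm10, per the submitters' processing notes; the sources used here give neither the annotation release nor the strand setting. RSEM shares reads between similar genes by estimation, which bears on paralogous transferases. Counts entered edgeR and limma-voom as deposited and were rounded to whole numbers for DESeq2 and its size factors. Identifiers were named through GENCODE M21; 224 of 50686, with 0.0199% of counts, had no symbol.

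Each day was fitted on its own 6 libraries with edgeR 4.0.16 (R 4.3.3; TMM scaling, filterByExpr with a minimum count of 10, robust quasi-likelihood test), and the difference between days on all 12. Values are CPM on TMM-scaled library sizes. Members below the filter were not tested. Alternatives were DESeq2 1.42.0, limma-voom (limma 3.58.1), other scalings and filters, thinned day 9 counts, a replicate block, a 12-library model, leaving out each library and, chosen after seeing the data, leaving out 2 day 13 libraries together. Scripts were tested on simulated data. Stretches shared between genes are identical runs of 50 bases in GENCODE M21 transcripts.

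The members and gene lists were chosen with earlier results of these data known. Members called at either day are given library by library, the others by range; of each other pathway list up to 3 called genes with the smallest p per day are named, and of marker lists up to 2. One result that this rule would name is not reported here.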

Additional observations from a re-analysis of the deposited data

How the results depend on the processing

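The day 9 member counts stayed within 1.5 times their values under all alternatives run, and 15 of the 21 day 9 calls and 4 of the 17 day 13 calls (Gstm2, Gstm4, Gstt1 and Gstt3) held under every one of them; 32 of 336 values at day 9 and 42 of 270 at day 13 lost the call, and 0 reversed. Leaving out 1 library at a time gave 2 to 2 members higher and 15 to 18 lower at day 9 (946 to 1367 and 1051 to 1473 of all genes), 0 to 3 higher and 5 to 16 lower at day 13 (471 to 1031 and 395 to 979 of all genes), and 0 to 1 higher and 0 to 0 lower for the difference between days (34 to 260 and 96 to 248 of all genes). In 1 model of all 12 libraries, 846 genes were higher and 975 lower at day 9, and 1824 and 1553 at day 13, against 1687, 1725, 1060 and 954 with each day on its own. For the difference, DESeq2 called 1 member higher and 1 lower (471 and 520 of all genes), and limma-voom with 1 weight per day called 48 genes higher and 91 lower, against 128 and 236. Upper-quartile scaling moved the share of higher among called genes from 35.2% to 22.9% for the difference. With day 9 counts thinned to the mean day 13 total, 2 members were higher and 19 lower at day 9, the same numbers as at full depth. The members differed, since Mgst1 and Gpx1 gained a call and Gstm5 and Gsr lost theirs. Under at least 1 alternative a call was gained by 6 members at day 9 and by 4 at day 13.

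With the replicate number as a block, 28 genes were higher and 89 lower for the difference; 2 members were higher and 19 lower at day 9, and 2 and 11 at day 13. Same-numbered libraries did not deviate together (correlations of -0.12, -0.146 and 0.217 at day 9 and 0.227, -0.111 and -0.0604 at day 13), and not every library correlated best with its own number, so the numbers were not treated as pairs.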
